A study of Mus musculus with 12 samples.

Results

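The immunity-related GTPases (IRG) are interferon-induced GTP-binding proteins of the mouse that defend cells against vacuolar pathogens. They were followed here through the 7 genes Irgm1, Irgm2, Igtp, Iigp1, Tgtp1, Tgtp2 and Ifi47, taken by symbol from a table of 23336 gene symbols. All 7 had counts, and all 7 were among the 11561 genes tested. The libraries come from B16, an established mouse melanoma line. Control cells carried non-targeting sgRNA 5 and Adar-null cells Adar sgRNA 1, each after brief exposure to Cas9 and subcloning. Cells of each genotype were kept for 36 h either with IFNb, a type I interferon, at 1000 U/mL, or with its vehicle, PBS with 0.1% BSA. This gave 4 groups of 3 libraries. A genotype is thus represented by a single guide, and effects of the deletion and of subcloning cannot be told apart. The labels do not state separate cultures for the 3 libraries of each group, so the p-values reflect the scatter of these libraries alone, and that scatter may be technical. An interferon-gamma arm is not analysed here.

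IRG proteins fall into regulators and effectors. The regulators Irgm1, Irgm2 and Igtp (also called Irgm3) sit on the membranes of the cell's own organelles and hold the effectors inactive there; their nucleotide-binding loop reads GMS. The effectors, Iigp1 (Irga6), Tgtp1 and Tgtp2 (Irgb6) and Ifi47 (Irgd), carry GKS in that loop and assemble on the vacuoles of Toxoplasma gondii and Chlamydia, which then break open. Interferon-gamma is the best known inducer of the family, whose promoters are bound by interferon-activated transcription factors, among them the complex ISGF3.

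Of the members, 6 lie on chromosome 11. In GRCm38, Irgm1 (48861968 to 48871683, minus strand), Tgtp1 (48985327 to 48994172, minus), Tgtp2 (49057194 to 49064206, minus) and Ifi47 (49076587 to 49096974, plus) form a cluster. Igtp (58199556 to 58207591, plus) and Irgm2 (58199618 to 58222782, plus) lie 9102.6 kb further on, and their annotated models overlap. A RefSeq promoter (build GRCm38.p6, 250 bases before to 50 after the gene start) was matched for 6 of the 7 members. The stretches of 50 bases below are shown because 5 of these promoters hold in them the same kind of element, close to the gene start. Capitals mark matches to the core of the interferon-stimulated response element (ISRE), searched as GAAA, any 2 bases and GAAA again, and to TTCNNNGAA, the gamma-activated sequence (GAS) bound by STAT dimers; both strands were searched.
Irgm1, chr11:48871427-48871476, minus strand: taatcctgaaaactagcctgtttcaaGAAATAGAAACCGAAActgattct
Irgm2, chr11:58214881-58214930, plus strand: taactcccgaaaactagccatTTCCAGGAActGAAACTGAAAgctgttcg
Igtp, chr11:58199490-58199539, plus strand: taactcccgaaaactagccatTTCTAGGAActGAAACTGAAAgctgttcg
Tgtp1, chr11:48992306-48992355, minus strand: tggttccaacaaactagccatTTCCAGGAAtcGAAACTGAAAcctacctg
Tgtp2, chr11:49064265-49064314, minus strand: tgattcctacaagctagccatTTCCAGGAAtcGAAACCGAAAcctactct

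In Irgm2, Igtp, Tgtp1 and Tgtp2 the GAS stands just upstream of the ISRE core. Irgm1 has 2 overlapping ISRE cores and no match to this spelling of the GAS. Distances are from the RefSeq start, which lies 15359 bases inside the GENCODE model of Irgm2, 1926 inside that of Tgtp1 and 263 inside that of Irgm1, and within 6 bases of the GENCODE start for the others. The ISRE core starts 64 bases before the RefSeq start in Irgm2, 34 in Igtp, 77 in Tgtp1 and 70 in Tgtp2, and the downstream of the 2 cores in Irgm1 starts 24 bases before it. Irgm2 and Igtp are identical at 49 of the 50 bases, Tgtp1 and Tgtp2 at 43, and Irgm1 and Irgm2 at 28. Neither motif was found in the Ifi47 window. Of 32851 promoters in the table, 3.44% hold the ISRE core, 8.30% the GAS, and 0.161% both with starts no more than 30 bases apart. These are matches of letters, not measured binding. The whole windows of Irgm1 and Irgm2 are given because these regulators differed in the direction of their genotype difference under IFNb, described further on. In that comparison Tgtp1 and Tgtp2, with both motifs, were not called, and Ifi47, with neither, was higher. Whether the motifs bear on the direction was not tested.
Irgm1, chr11:48871371-48871670, minus strand: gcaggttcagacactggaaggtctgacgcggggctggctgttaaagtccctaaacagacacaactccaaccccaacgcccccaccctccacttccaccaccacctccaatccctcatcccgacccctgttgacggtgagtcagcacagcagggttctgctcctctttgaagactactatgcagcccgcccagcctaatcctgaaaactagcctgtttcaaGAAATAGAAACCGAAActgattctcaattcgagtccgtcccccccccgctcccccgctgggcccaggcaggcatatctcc
Irgm2, chr11:58214727-58215026, plus strand: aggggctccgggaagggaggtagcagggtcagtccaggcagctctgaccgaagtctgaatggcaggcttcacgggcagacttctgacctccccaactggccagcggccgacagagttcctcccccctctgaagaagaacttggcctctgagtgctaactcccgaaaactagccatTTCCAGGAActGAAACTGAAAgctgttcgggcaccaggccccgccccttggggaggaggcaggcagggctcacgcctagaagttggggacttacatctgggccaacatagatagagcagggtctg

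**Figure D1:**
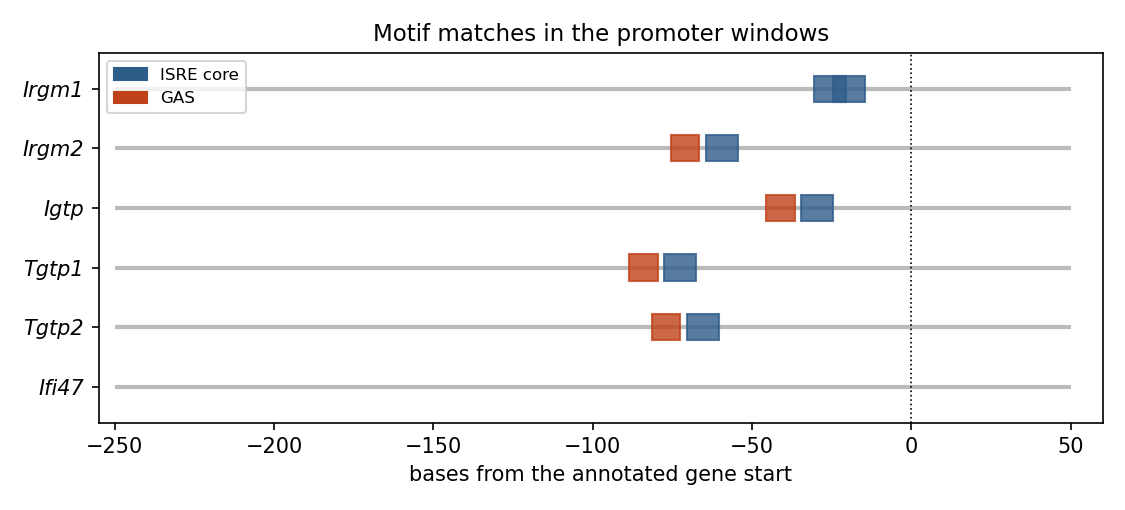
Matches to the ISRE core (blue) and the GAS (red) in the promoter windows of 6 IRG genes (grey lines); the x axis gives bases from the RefSeq gene start. A GAS stands upstream of an ISRE core in Irgm2, Igtp, Tgtp1 and Tgtp2, Irgm1 has 2 overlapping ISRE cores, and Ifi47 has neither match.

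Total counts per library ranged from 5375649 to 7153480. All 8 melanocyte markers were counted in every group, with a sum of 10600 to 17100 CPM (CPM is the count relative to the TMM-adjusted size of its library), lowest in Adar-null cells with IFNb; its part in the results below was not tested. Of 9 leukocyte markers, 3 or 4 had counts in a group, with a sum of 1.44 to 4.96 CPM. The highest was Cd68, at 1.16 to 2.92 CPM by group mean. It was called higher with IFNb in both genotypes (1.33 in control and 0.91 in Adar-null cells on the log2 scale). So were 26.5% of all genes in control and 36.6% in Adar-null cells. Cd68 passed the filter on low counts only through the IFNb groups, so these calls are not read as a result. Of the leukocyte markers, Cd3e and Cd14 were among those at 0 in every group. Of 11 fibroblast, endothelial and epithelial markers, 6 to 8 had counts (sum 18 to 36.9 CPM), with Epcam, Krt8 and Krt18 at 0. The highest were Col1a2 (9.19 to 19.4 CPM by group mean) and Pdgfrb (6.42 to 10.7 CPM). Under vehicle Col1a2 was called higher in Adar-null cells (0.61 ± 0.19 on the log2 scale, edgeR adjusted p = 0.049). The share of counts from Rn45s, a ribosomal RNA gene, was 21.1 to 22.9% with vehicle. With IFNb it was 24.9 to 25.3% in control and 25.8 to 28.5% in Adar-null cells, and so moved with the groups compared below. Refitting with Rn45s left out changed the call of no member. What else this share may reflect was not tested. The targeted gene Adar with vehicle was at 72.2 ± 2.05 CPM in control and at 59.5 ± 5.26 CPM in Adar-null libraries (SD, n = 3), a called difference of -0.28 ± 0.06 on the log2 scale (edgeR adjusted p = 0.0017). With IFNb it was at 384 ± 7.47 and 408 ± 21.2 CPM (adjusted p = 0.0817), so its transcripts were counted in both genotypes. In bulk RNA, fewer cells with a transcript and less of it per cell cannot be told apart.

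Tgtp1 and Tgtp2 carry reads that are hard to assign. Among the words of 37 bases, the read length, in its GENCODE M21 transcripts, 16.7% of those of Tgtp1 and 10.7% of those of Tgtp2 occur in no other gene, and the rest are mostly shared between these genes (81.9% and 88.1%). How such reads were counted is not given in the sources used here, so the values of Tgtp1 and Tgtp2 are uncertain and are best read as those of the pair. For the other members the share of words of their own was 85.6% for Igtp, 90.3% for Irgm2, 94.1% for Ifi47, 95.2% for Iigp1 and 98.4% for Irgm1. Igtp and Irgm2 share 296 words. The annotated model of Ifi47 overlaps Olfr56 on the same strand and Gm12188 on the other, and Ifi47 shares 77 and 70 words with them. Iigp1 lies apart from the others, on chromosome 18.

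Without interferon, the family was close to silent in both genotypes except for Irgm1. Together the 7 genes held 83 to 117 counts of a control vehicle library and 95 to 112 of an Adar-null vehicle library, most of them from Irgm1. Irgm1, which protects cells from mycobacteria and takes part in the upkeep of lysosomes and mitochondria, was at 13.2, 17.0 and 11.9 CPM in the control libraries and at 14.7, 13.9 and 15.7 CPM in the Adar-null libraries. These ranges overlapped. Ifi47 was next, at 2.81, 2.14 and 1.63 CPM in control and 0.514, 1.24 and 1.43 CPM in Adar-null libraries, from 38 and 20 counts in all. For Ifi47 the difference between the genotypes did not pass the test (log2 fold change -1.02 ± 0.40, SE, edgeR adjusted p = 0.0891).

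The remaining members were at the edge of detection with vehicle. Irgm2 had 10 counts over the control and 14 over the Adar-null vehicle libraries, Igtp 2 and 3, and Iigp1 1 and 2. Tgtp1 and Tgtp2 had a count of 0 in all 6 vehicle libraries, which allows up to 0.173 CPM in control and 0.161 CPM in Adar-null cells (3 counts over a group, counting error only). With the edgeR quasi-likelihood test, 0 of the 7 members were called between the genotypes under vehicle, and 1 had an unadjusted p under 0.05, Ifi47, beside 19.5% of all genes; DESeq2 and limma-voom also called 0. Over all genes tested, 6.51% were called in this comparison, 2.47% higher and 4.05% lower. For Irgm1 the interval of the difference was -0.19 to 0.31 on the log2 scale. For Igtp, Iigp1, Tgtp1 and Tgtp2 a difference was not detectable at this depth.

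**Figure D2:**
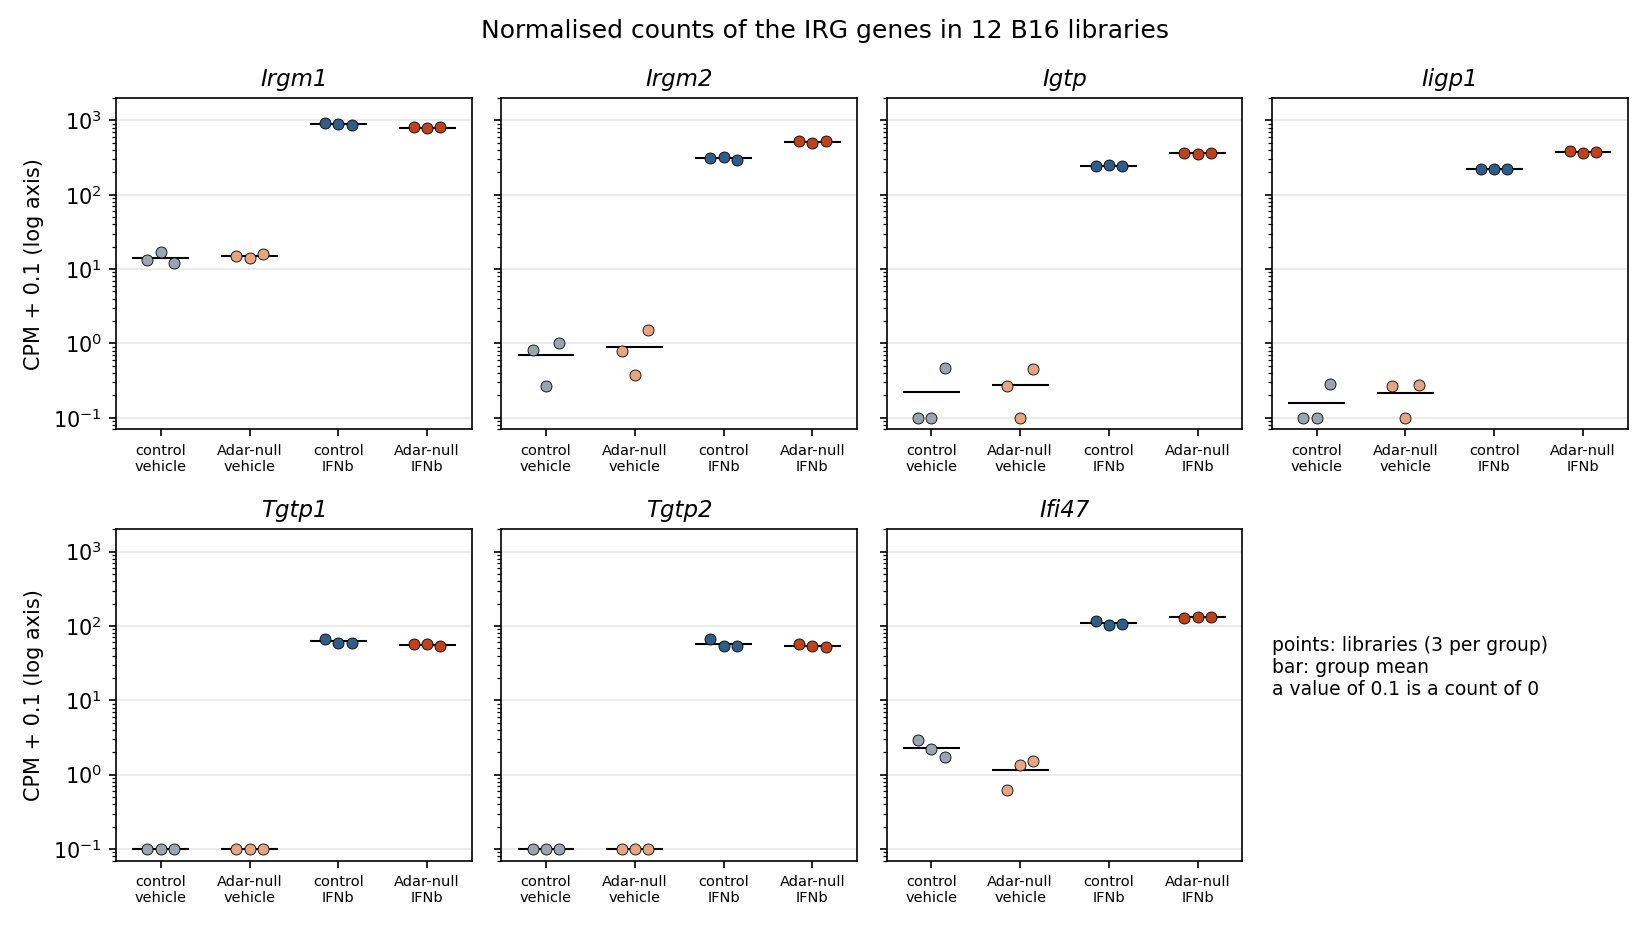
Normalised counts (CPM plus 0.1, log axis) of the 7 IRG genes in each of the 12 libraries, set out by group; a point is 1 library and a bar the group mean. Tgtp1 and Tgtp2 are at 0 in all vehicle libraries, and Irgm1 lies between 11.9 and 17.0 CPM there.

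In control cells with IFNb all 7 genes were called higher than with vehicle. Only Irgm1 would have passed the filter on low counts from the vehicle libraries alone. The other 6 passed it only through the IFNb groups and so had to differ, and nothing is read from the count of 7 beside the 26.5% of all genes called higher (53.0% in either direction). The family's summed level went from 14.99 to 19.3 CPM with vehicle to 1860 to 1953 CPM with IFNb.

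Among the regulators, Irgm1 reached 930, 892 and 876 CPM in the control libraries with IFNb. This was a rise of 5.99 ± 0.09 on the log2 scale (adjusted p = 2.1e-106), and by mean CPM Irgm1 ranked 36 of 11561 genes in this group. Irgm2, a regulator of the Golgi apparatus, reached 310, 320 and 296 CPM (9.01 ± 0.46). Igtp, found mainly on the endoplasmic reticulum and on lipid droplets, reached 243, 249 and 246 CPM. Because Igtp had 2 counts with vehicle, its ratio of 2130 has a counting interval of 589 to 17600 (95%, exact).

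Among the effectors, Iigp1, which loads early onto the Toxoplasma vacuole, reached 221, 219 and 222 CPM in control cells with IFNb, a ratio of 3820 with an interval of 684 to 151000 over a single vehicle count. Ifi47 reached 116, 105 and 106 CPM (5.62 ± 0.24), the smallest fitted rise of the 7. Tgtp1, at 67.5, 58.5 and 59.2 CPM, was at least 354-fold higher than with vehicle. Tgtp2, at 65.7, 53.3 and 53.5 CPM, was at least 329-fold higher. The ratio of Tgtp1 to Tgtp2 counts lay between 1.01 and 1.11 in all 6 IFNb libraries of both genotypes.

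In Adar-null cells the 7 genes were again called higher with IFNb, where 36.6% of all genes were (72.3% in either direction), and the same limit holds for the 6 that passed the filter only through the IFNb groups. The summed level went from 15.5 to 19.1 CPM with vehicle to 2240 to 2324 CPM, above all 3 control libraries with IFNb.

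Irgm1 reached 806, 785 and 809 CPM in these libraries (5.76 ± 0.09, adjusted p = 9.41e-106). Irgm2 reached 526, 501 and 522 CPM (9.39 ± 0.39). Igtp reached 366, 353 and 367 CPM, a ratio of 2250 with a counting interval of 770 to 10900. The effectors followed, those of the Tgtp pair with the limit on shared reads given above. Iigp1 was at 382, 361 and 371 CPM, with a ratio of 3460 and an interval of 958 to 28600. Ifi47 was at 130, 131 and 132 CPM (6.91 ± 0.32). Tgtp1, at 57.4, 56.5 and 53.5 CPM, was at least 347-fold higher than with vehicle, and Tgtp2, at 56.8, 54.1 and 52.4 CPM, at least 338-fold.

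Levels of different genes were compared per length, as CPM per kb of each gene's longest GENCODE M21 transcript. In control cells with IFNb the order was Irgm1 (235 ± 7.19 CPM per kb, SD, n = 3), Igtp (122 ± 1.55), Irgm2 (87.5 ± 3.34), Iigp1 (70.7 ± 0.529), Ifi47 (61.5 ± 3.66), Tgtp1 (21.9 ± 1.77) and Tgtp2 (20.5 ± 2.52). Every neighbouring pair was separate over the 3 libraries except Tgtp1 and Tgtp2, whose low place may depend on how shared reads were counted; this was not tested. In Adar-null cells with IFNb the order was the same, and Irgm1 (209 ± 3.49) and Igtp (179 ± 3.82) lay closer together. Irgm2 (146 ± 3.71) and Iigp1 (119 ± 3.51) followed, then Ifi47 (73.7 ± 0.624), Tgtp1 (19.8 ± 0.728) and Tgtp2 (19.4 ± 0.796). The order depends on the length used. Per kb of merged exons Ifi47 lay above Iigp1 in control cells with IFNb (44.1 and 37.9), and in Adar-null cells with IFNb Igtp (179) lay above Irgm2 (140) and Irgm1 (138). With vehicle, Irgm1 was the highest in both genotypes on either length (3.66 ± 0.689 in control, 3.86 ± 0.229 in Adar-null cells, by longest transcript).

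**Figure D3:**
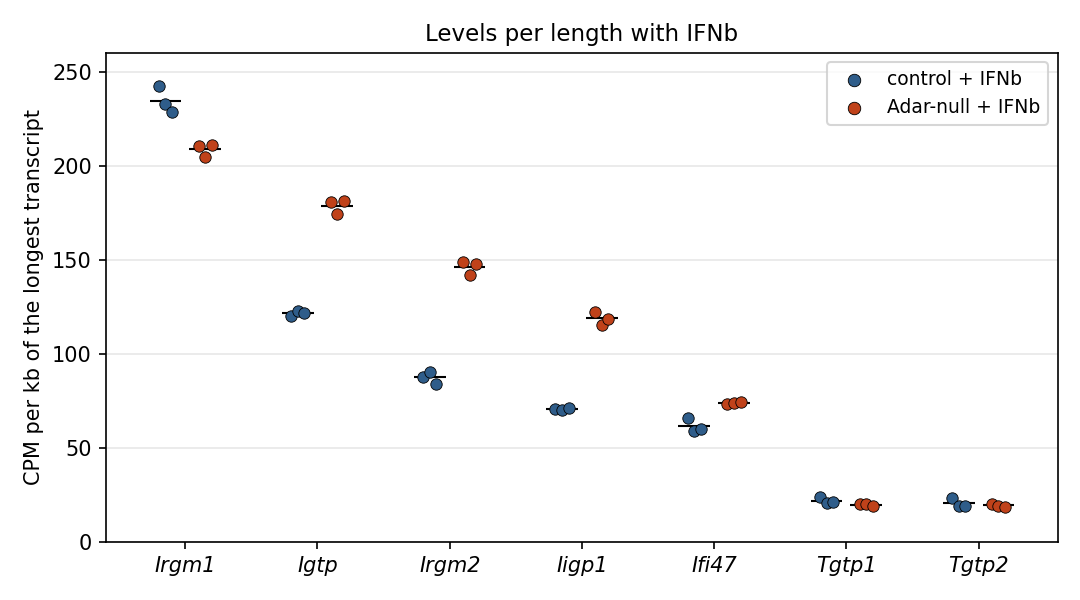
Levels of the 7 IRG genes in the 6 IFNb libraries, as CPM per kb of the longest transcript; points are libraries and bars group means. Irgm1 is highest in both genotypes (235 and 209 on average), and Tgtp1 and Tgtp2 are lowest, near 20.

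Under IFNb, the comparison of Adar-null with control cells asks whether the genotype changed the level the family reached, and its members went in different directions. The regulators Irgm2 and Igtp and the effectors Iigp1 and Ifi47 were higher in Adar-null cells, Irgm1 was lower, and Tgtp1 and Tgtp2 were not called. That is 5 of 7 called, a share close to the 72.6% of all genes called in this comparison; 4 were higher (36.4% of all genes) and 1 lower (36.2%). The median over the members was 0.27, beside 0.02 over all genes. This comparison shares its libraries with the responses above.

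Irgm2 was higher by 0.74 ± 0.05 on the log2 scale (adjusted p = 7.25e-29), a 1.67-fold difference. Iigp1 was higher by 0.75 ± 0.04 (1.68-fold, adjusted p = 3.42e-33), and Igtp by 0.56 ± 0.04 (1.47-fold, adjusted p = 6.37e-23). In Iigp1 the nearest libraries with IFNb were at 361 CPM in Adar-null and 222 CPM in control cells. Ifi47 was higher by 0.27 ± 0.06 (1.20-fold, edgeR adjusted p = 1.97e-05), its nearest libraries being 130 and 116 CPM.

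Irgm1 was lower by a small amount, -0.17 ± 0.04 (1.12-fold, edgeR adjusted p = 0.000115). Its nearest libraries were at 809 CPM in Adar-null and 876 CPM in control cells. Tgtp1 differed by -0.14 (interval -0.30 to 0.01, adjusted p = 0.0966) and Tgtp2 by -0.07 (interval -0.23 to 0.09, adjusted p = 0.418). Tgtp1 was called lower when the control IFNb library of replicate 2 was left out (-0.20, adjusted p = 0.0423). With the counts of both Tgtp genes summed the difference was -0.11 (adjusted p = 0.0943). With those of Gm12185, whose annotated model overlaps Tgtp1, added as well, it was 0.03 (adjusted p = 0.611). The sum of Igtp and Irgm2, whose models overlap, was higher by 0.66 (adjusted p = 2.2e-17).

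**Figure D4:**
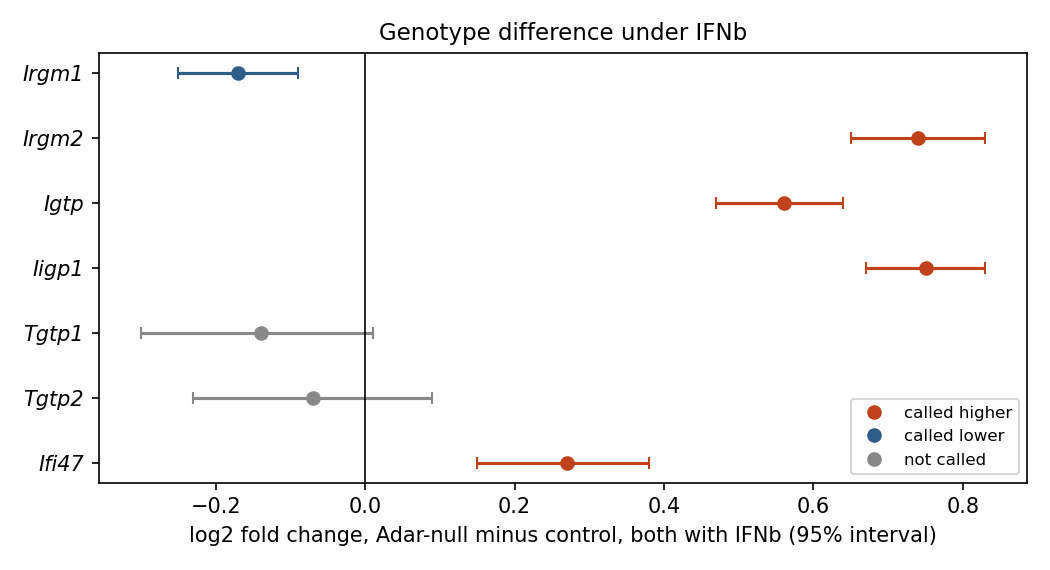
Log2 fold change between Adar-null and control cells, both with IFNb, for the 7 IRG genes, with 95% intervals (x axis); colours give the call at an adjusted p of 0.05. Irgm2, Igtp, Iigp1 and Ifi47 lie to the right of 0, Irgm1 lies to the left, and the intervals of Tgtp1 and Tgtp2 include 0.

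Counts of 2 genes within the same library do not depend on how libraries are scaled against each other. Per count of Irgm1, the control libraries with IFNb held 0.334 to 0.358 counts of Irgm2, and the Adar-null libraries 0.639 to 0.652. For Igtp the ratio was 0.261 to 0.281 in control and 0.450 to 0.453 in Adar-null libraries. For Iigp1 it was 0.237 to 0.254 against 0.458 to 0.474. For these 3 genes the ranges of the genotypes did not overlap, in a comparison where 72.6% of all genes were called. No share over all genes was taken for such ratios, so their separation is not read as a result. Irgm1, the denominator of each, was itself lower in Adar-null cells under IFNb (-0.17 on the log2 scale), which raises every ratio. Ifi47 moved less, from 0.117 to 0.125 up to 0.161 to 0.167 counts per count of Irgm1. The summed Tgtp genes overlapped, at 0.125 to 0.143 in control and 0.131 to 0.142 in Adar-null libraries. An exact regrouping of 3 against 3 libraries cannot give a p under 0.1, so it cannot call a difference. For these ratios it gave 0.1 for Irgm2, Igtp, Iigp1 and Ifi47 and 0.4 for the summed Tgtp genes. Adjusted over 7 ratios by Benjamini-Hochberg, these were 0.14 and 0.4.

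**Figure D5:**
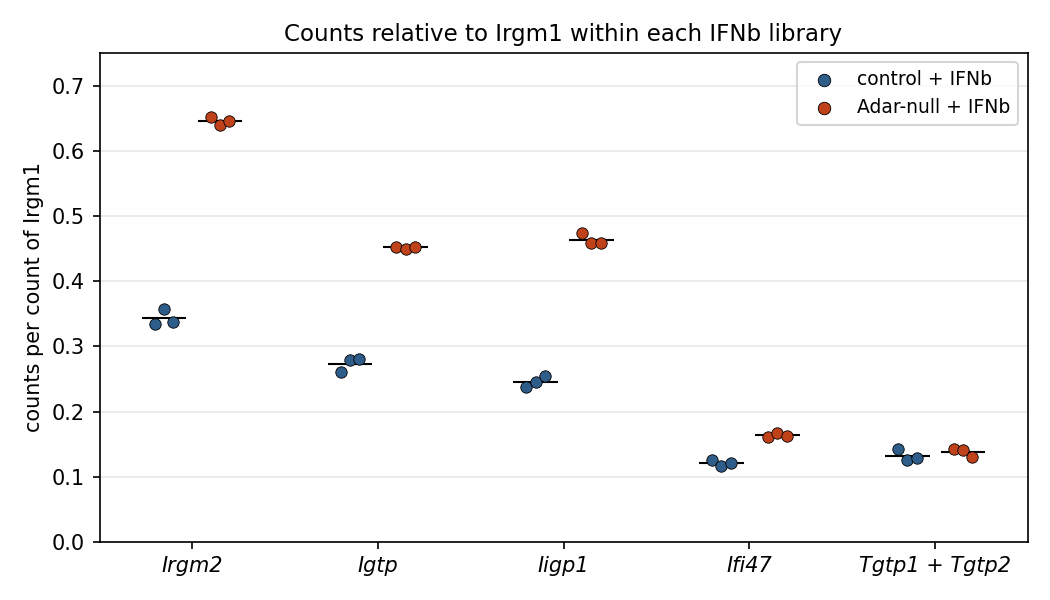
Counts of 5 IRG genes or pairs per count of Irgm1 within each of the 6 IFNb libraries (y axis, from 0); points are libraries and bars group means. Irgm2, Igtp, Iigp1 and Ifi47 are higher in all Adar-null libraries, and the summed Tgtp genes overlap at 0.125 to 0.143. Irgm1 itself was called lower in Adar-null cells under IFNb, which raises every ratio.

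The interaction (how far the IFNb response differed between the genotypes, control subtracted) was called for 1 of 7 members, Ifi47, which was higher by 1.29 ± 0.40 (adjusted p = 0.00245); over all genes 28.6% were called higher, 30.7% lower and 59.3% in either direction. It is the sum of the difference under IFNb (0.27) and the reverse of that under vehicle (-1.02), where Ifi47 had 38 counts in control and 20 in Adar-null cells. Irgm1 gave -0.23 ± 0.13 (adjusted p = 0.113) and was called lower when replicate 2 of the control vehicle group was left out (-0.40, adjusted p = 0.015). For Irgm2 the interval was -0.79 to 1.55. For Igtp (-2.44 to 2.73) and Iigp1 (-3.42 to 3.51) the few vehicle counts leave the interaction undetermined at this depth, and for Tgtp1 and Tgtp2, at 0 with vehicle, it cannot be estimated.

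Other gene models of the IRG family were also counted. Of 16 symbols listed, 12 are in the table and 8 passed the filter on low counts. Of these 8, 7 passed it only through the IFNb groups, 2 of them (Gm4841 and Gm5431) only through Adar-null cells with IFNb, so no count over the list is read as a result. Gm12250 (Irgb10), which attacks bacterial membranes together with guanylate-binding proteins, went from 3 counts over the control vehicle libraries to 27.9 ± 0.879 CPM, and reached 54.0 ± 1.51 CPM in Adar-null cells. Gm4951 was at 30.5 ± 2.10 and 61.5 ± 2.63 CPM in the 2 IFNb groups, and F830016B08Rik at 16.9 ± 3.05 and 26.6 ± 4.64 CPM. Irgq, a divergent relative, was the exception in level: it was counted everywhere (46.8 to 65.1 CPM by group mean) and its rise with IFNb was 0.27 ± 0.08 without and 0.47 ± 0.08 with the Adar guide.

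Of 8 interferon transcription factors tested, 7 were called higher with IFNb in control cells (26.5% of all genes) and 8 in Adar-null cells (36.6%); 3 of the 8 passed the filter only through the IFNb groups. Irf2 was not called in control cells (0.09, adjusted p = 0.555), and Irf8 was at 0 in every group. Under IFNb 7 were higher in Adar-null cells (36.4% of all genes) and Irf7 was lower (-0.33 ± 0.06; 36.2% of all genes), with a median of 0.96 beside 0.02 over all genes. Stat2 (1.45 ± 0.05), Irf9 (0.50 ± 0.06) and Nlrc5, the activator of class I MHC genes (1.11 ± 0.06), were among those higher under IFNb in Adar-null cells.

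The guanylate-binding proteins are larger GTPases that work with IRG proteins at vacuoles. Of the 9 tested, all were called higher in Adar-null cells under IFNb, but Gbp5 and Gbp10 passed the filter only through that group and had to be, so the count is not read as a result. Gbp3 was higher by 0.89 ± 0.04, Gbp7 by 0.47 ± 0.05, Gbp2 by 2.27 ± 0.06 and Gbp9 by 1.99 ± 0.10. Of 20 interferon-stimulated genes of the ISGF3 type, 18 were higher and 2 lower (median 0.81), beside 36.4% and 36.2% of all genes, among them Rsad2 (1.65 ± 0.04), Ifit1 (1.11 ± 0.04), Ifit2 (1.93 ± 0.04) and Ifit3 (1.17 ± 0.04).

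The conjugation system that places ATG8 proteins on membranes, and that IRG effectors need in order to load onto vacuoles, was expressed in all groups. Of its 11 genes, 6 were lower with IFNb in control cells (median -0.27; 26.5% of all genes were lower), 7 were higher with IFNb in Adar-null cells (median 0.21; 36.6% of all genes), and 9 had a positive interaction (median 0.50; 28.6% of all genes). Gabarapl1, an ATG8 protein, was at 71.1 ± 3.96 CPM in control and 177 ± 10.1 CPM in Adar-null cells with IFNb (1.32 ± 0.06). Gabarap (0.73 ± 0.05), Atg7, the activating enzyme (0.47 ± 0.07), and Atg3, the conjugating enzyme (0.43 ± 0.07), were higher too. Of 7 genes for ubiquitin and its receptors at vacuoles, all were higher in Adar-null cells under IFNb (median 0.63; 36.4% of all genes were higher). The receptor gene Sqstm1, which encodes p62, was at 732 ± 11.1 and 2874 ± 81.2 CPM (1.97 ± 0.03), while Tax1bp1 (0.43 ± 0.04), Nbr1 (0.68 ± 0.05) and Traf6 (0.59 ± 0.06) differed less. Of 10 genes of lysosomes and partner membranes, 6 were higher and 3 lower (median 0.48), where 36.4% and 36.2% of all genes were, with Lamp1 at 0.59 ± 0.04, Lamp2 at 0.37 ± 0.05, Lgals9 at -0.69 ± 0.04 and Dnm1l at -0.22 ± 0.05.

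The genes most like each member were found by the distance in 3 fitted log2 fold changes (IFNb in each genotype, and genotype under vehicle) among 11180 genes with at least 1 CPM in each IFNb group. Nearest to Irgm1 was H2-T23, a class I-like MHC gene (5.99 in control and 6.07 in Adar-null cells, distance 0.31). Ifitm3 (0.449) and Cxcl9 (0.725) came next. The vehicle counts of Cxcl9 are not given here, and its place may depend on the prior count of the fit. Under IFNb the genotype difference was 0.08 for H2-T23, -0.85 for Ifitm3 and 0.57 for Cxcl9, beside -0.17 for Irgm1. For Ifitm3 the interaction was called (edgeR adjusted p = 0.000164), unlike that of Irgm1. Nearest to Irgm2 were Gbp3 (0.475), Xaf1 (0.485) and Isg15 (0.739), and nearest to Ifi47 were Ube2l6 (0.85), Ifih1 (0.908) and Rsad2 (1.09). For Igtp, Iigp1, Tgtp1 and Tgtp2 the fitted values rest on 3 or fewer vehicle counts, so their neighbours (D14Ertd668e for Igtp, Apol9b for Iigp1 and both Tgtp genes) depend on the prior count of the fit.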

How the data were processed

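Per the labels' protocols, RNA of 12 B16 libraries was depleted of ribosomal RNA and sequenced directionally as paired reads of 37 bases. The submitters' processing notes name Bowtie2 (2.2.4) and HTSeq (0.6.1p1), besides Trimmomatic (0.33), bcl2fastq (2.19.1) and DESeq2, and the build mm10. The sources used here do not give the annotation, the strand setting or how reads with several placements were treated. The authors deposited raw counts per gene symbol, not normalised.

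Low genes were removed with filterByExpr on the groups, and libraries were scaled by TMM. The edgeR 4.0.16 quasi-likelihood test (robust, R 4.3.3) was fitted once over all 12 libraries with 1 term per group, for 5 comparisons, with Benjamini-Hochberg adjustment over all 11561 genes within each and a threshold of 0.05. The fit was tested on simulated counts, with smaller changes placed in well-counted genes only. That setting does not cover members with few or no vehicle counts. Log2 fold changes carry Wald standard errors not below counting error, or their 95% intervals; CPM carry SDs over 3 libraries. Ratios over 1 to 3 counts have exact counting intervals. Alternatives were other scalings and filters, DESeq2 1.42.0, limma-voom (limma 3.58.1), the compared groups alone, a replicate block, each library left out, and sums of genes that share sequence or position. The members and gene lists were chosen with earlier results of these data known. Named beside the members are Adar, the 4 tested genes with the highest mean CPM of each list, and the 3 nearest genes per member. Positions and lengths come from GENCODE M21 (GRCm38). Libraries of 1 group differed by more than sampling noise (chi-square over its degrees of freedom 1.47 to 3.23).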

Additional observations from a re-analysis of the deposited data

Results flagged for a closer look

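The response of Ifi47 to IFNb differed between the genotypes by a test of the difference itself: the interaction was 1.29 ± 0.40 on the log2 scale (edgeR adjusted p = 0.00245). Over 24 alternatives it lay between 0.99 and 1.51, with adjusted p between 0.00146 and 0.0303. It was at its lowest when replicate 1 of the Adar-null vehicle group was left out, a library that held 3 counts of Ifi47. Under vehicle the 3 control libraries had 16, 13 and 9 counts and the Adar-null libraries 3, 9 and 8. How far reads of the overlapping models Olfr56 and Gm12188 enter these counts was not tested.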

How the results depend on the processing

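The call of each member, and the direction of each called difference, were kept under 23 other settings and 2 more that were chosen after seeing the data, with 2 exceptions. Leaving out 1 library at a time gave 1 to 2 members lower in Adar-null cells under IFNb, since Tgtp1 was called without the control IFNb library of replicate 2 (-0.20, adjusted p = 0.0423). It gave 0 to 1 members with a lower interaction, since Irgm1 was called when replicate 2 of the control vehicle group was left out (-0.40, adjusted p = 0.015). The cause was not tested. The calls in the other directions and comparisons were the same in number: 7 and 7 higher with IFNb, 4 higher in Adar-null cells under IFNb and 1 higher interaction, in every alternative that kept 7 rows. Under IFNb, Irgm1 lay between -0.19 and -0.13, Irgm2 between 0.71 and 0.78, Iigp1 between 0.72 and 0.79, and Ifi47 between 0.22 and 0.31. With the replicate block the counts were 7, 7, 4 and 1 higher and 1 lower, as without it. Deviations of the 18 same-numbered pairs of libraries correlated by -0.10 to 0.0618, and those of the 36 differently numbered pairs by -0.103 to 0.1. No shared shift by number was seen, which does not settle whether same-numbered libraries were handled together. Fitted rises of Igtp, Iigp1, Tgtp1 and Tgtp2 are limited by 0 to 3 vehicle counts: that of Igtp in control cells was 10.82, and 13.57 without replicate 3 of the control vehicle group, which held both of its counts.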

Other observations

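The widest genotype differences among the other IRG-like gene models tested fell outside the rule for named genes, and these models were chosen after their values were seen. Gm4841 and Gm5431 passed the filter on low counts only through Adar-null cells with IFNb, so they had to be high there, and their differences are given as a description. Gm4841 had 14 counts over the control and 136 over the Adar-null libraries with IFNb (3.31 ± 0.45 on the log2 scale). It had 0 in all vehicle libraries. Gm5431, which lies between Irgm1 and Tgtp1 on chromosome 11, had 6 and 54 counts (3.15 ± 0.70). In level they remained far below the 7 members, at 7.501 ± 1.82 and 2.99 ± 0.372 CPM in Adar-null cells with IFNb (SD, n = 3). The annotated model of Gm12185 overlaps Tgtp1. With IFNb this gene was at 10.8 ± 1.62 CPM in control and 22.5 ± 1.78 CPM in Adar-null cells (1.06 ± 0.15, edgeR adjusted p = 7.98e-11). The Tgtp genes themselves were not called. It shares 207 of its words of 37 bases with Tgtp1 and 197 with Tgtp2, and how far shared reads enter its value was not tested.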
